A study of Mus musculus with 5 samples.

Results

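The genes of cytoplasmic translation initiation and elongation factors were examined in CD4+CD8+ double-positive (DP) thymocytes, the most abundant stage of T-cell development in the thymus. Members were the autosomal protein-coding genes of the mouse mm9 annotation whose symbols begin with Eif or Eef and a digit, which gave 63 of 21275 genes. Of these, 59 are named for translation factors or their regulators, though some, such as Eif4a3 of the exon junction complex and Eef1e1 of the tRNA synthetase complex, mainly act elsewhere, and 4 (Eif2c1, Eif2c2, Eif2c3 and Eif2c4) carry an older name of the Argonautes, proteins that silence mRNA with small RNAs. A further 3 genes, Eif1ax, Eif2s3x and Eif2s3y, lie on the sex chromosomes and were outside the selection.

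The study mapped Cxxc1 and trimethylated histone H3 lysine 4 (H3K4me3) by chromatin immunoprecipitation and sequencing (ChIP-seq), to ask which marks in these cells depend on Cxxc1. Each group had 1 library, and 3 lists of enriched 200-bp windows were used: H3K4me3 in WT cells, H3K4me3 in Cxxc1-deficient cells, and Cxxc1. Per the study's methods, WT mice carried the floxed Cxxc1 allele (Cxxc1 fl/fl) and deficient mice carried it together with an hCD2-driven Cre (Cxxc1 fl/fl hCD2Cre), which per the study begins to delete the gene at an early stage of thymocyte development, with deletion complete at the DP stage. The genotype label of the deficient samples reads Cxxc1+/-, that of a heterozygote, whereas their titles read KO; the titles were followed. Neither ages nor the number of animals behind a library are in the labels. The file of the Cxxc1 list carries no genotype, and it was taken as WT from the study's methods. The Cxxc1 ChIP of deficient cells, which would check the loss of the protein, was not analysed here.

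Translation begins when a small ribosomal subunit, loaded with initiator tRNA by eIF2 and held by eIF1, eIF1A and eIF3, is brought to the cap of an mRNA by eIF4E, eIF4G and the helicase eIF4A, and scans to the start codon. eIF5 and eIF5B then let the large subunit join, after which eEF1A delivers each aminoacyl-tRNA and eEF2 moves the ribosome on by a codon. H3K4me3 marks the promoters of active genes, most of all those rich in CpG, and Cxxc1 is a CpG-binding subunit of the Setd1 complex that deposits it.

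Values were the authors' RPM (tags per 1000000 mapped tags) for each listed window. From the smallest steps between the values, 1 tag was worth 0.1056 to 0.1062 RPM in WT, 0.1058 to 0.1062 in Cxxc1-deficient and 0.1096 to 0.11 in Cxxc1, so that the depth was about 9412000 to 9473000, 9412000 to 9454000 and 9091000 to 9122000 tags. The lists held 99316, 18403 and 20038 windows in 14237, 2979 and 4352 peaks, and the lowest peak of each held 1.1 RPM. A promoter was called listed when any listed window fell at most 1 kb from a transcription start site (TSS) of the gene. A promoter without a window has an unknown signal under the calling limit, not a signal of 0. RPM is scaled to the depth of each library, so it does not carry a change in the total amount of the mark. Per the study, an immunoassay of extracted histones gave less total H3K4me3 in Cxxc1-deficient than in WT DP cells. Equal or higher RPM in Cxxc1-deficient cells therefore need not mean as much or more of the mark. With 1 library in each group there is no replicate error and no test between the genotypes. Intervals on shares are 95% Wilson intervals, those on tags are exact 95% Poisson intervals, and both cover counting error only, of genes or of tags.

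The labelled cell type was looked up first. Of 8 DP thymocyte marker genes, Cd8a, Cd8b1 and Cd3e had a listed WT promoter and Cd4, Cd3d, Cd3g, Rag1 and Rag2 did not, whereas in Cxxc1-deficient cells Cd8a, Cd3e and Rag1 had one. None of 14 markers of B cells (4), myeloid cells (4), thymic epithelium (4) or erythroid cells (2) had a listed promoter in either genotype. The share of DP markers listed in WT (37.5%, 13.7 to 69.4) was near the 32.5% of all autosomal genes. In Cxxc1-deficient cells it was also 37.5%, against 6.12%. With so few genes these listings do not identify the cell type.

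Upstream sequences of 7 members are shown before the comparisons. They are those of the 5 members with H3K4me3 listed in both genotypes, followed by the paralogs Eif5a, listed in WT cells, and Eif5a2, listed in Cxxc1-deficient cells. Each run is the stretch before a TSS, 5′ to 3′ on the strand of the gene, read from the mm9 genome (NCBIM37), and capitals mark each CpG, the dinucleotide that the CXXC domain of Cxxc1 binds when unmethylated.
Eif1ad: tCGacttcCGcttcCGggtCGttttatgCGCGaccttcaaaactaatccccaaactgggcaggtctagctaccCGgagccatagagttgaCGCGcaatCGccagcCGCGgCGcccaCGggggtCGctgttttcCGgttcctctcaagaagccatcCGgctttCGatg
Eif3k: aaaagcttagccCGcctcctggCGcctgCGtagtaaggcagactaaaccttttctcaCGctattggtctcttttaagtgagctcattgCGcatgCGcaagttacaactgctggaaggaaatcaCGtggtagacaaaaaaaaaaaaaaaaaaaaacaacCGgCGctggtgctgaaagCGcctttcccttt
Eif4e: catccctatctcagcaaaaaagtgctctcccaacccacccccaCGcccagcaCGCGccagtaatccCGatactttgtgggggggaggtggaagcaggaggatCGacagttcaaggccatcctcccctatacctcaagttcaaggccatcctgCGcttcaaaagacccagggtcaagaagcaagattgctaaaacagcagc
Eef2: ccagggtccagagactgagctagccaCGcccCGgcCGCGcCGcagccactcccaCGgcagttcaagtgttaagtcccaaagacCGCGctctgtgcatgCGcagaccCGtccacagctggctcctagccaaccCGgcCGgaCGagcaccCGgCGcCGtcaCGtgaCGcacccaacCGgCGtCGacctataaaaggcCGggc
Eif2c2: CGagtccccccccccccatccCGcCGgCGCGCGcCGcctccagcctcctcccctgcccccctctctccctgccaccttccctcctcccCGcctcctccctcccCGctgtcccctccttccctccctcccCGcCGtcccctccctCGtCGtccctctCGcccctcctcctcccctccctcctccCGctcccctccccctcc
Eif5a: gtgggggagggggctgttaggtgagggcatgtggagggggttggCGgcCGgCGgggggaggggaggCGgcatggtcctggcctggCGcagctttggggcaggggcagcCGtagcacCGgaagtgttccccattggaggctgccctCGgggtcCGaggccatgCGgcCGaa
Eif5a2: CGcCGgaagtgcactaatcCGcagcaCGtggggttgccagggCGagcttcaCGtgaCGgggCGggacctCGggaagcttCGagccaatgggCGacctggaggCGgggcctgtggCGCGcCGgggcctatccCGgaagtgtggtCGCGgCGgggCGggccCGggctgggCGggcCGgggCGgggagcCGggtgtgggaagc
The stretches lie at chr19:5366646-5366812 (+ strand) for Eif1ad, chr7:29766884-29767072 (- strand) for Eif3k, chr3:138188955-138189154 (+ strand) for Eif4e, chr10:80639176-80639375 (+ strand) for Eef2, chr15:73015378-73015577 (- strand) for Eif2c2, chr11:69734133-69734302 (- strand) for Eif5a and chr3:28680033-28680232 (+ strand) for Eif5a2. The stretch of Eif5a precedes an internal TSS, the one nearest to the centre of its peak. The stretches leave out annotated exons and so differ in length, with 167 bases at Eif1ad, 189 at Eif3k, 170 at Eif5a and 200 at the others. The shares and ratios below use other bases, from 250 before to 50 after the first TSS. The 7 stretches hold 18, 10, 6, 22, 15, 11 and 25 CpGs in this order. Eif4e, the gene of the cap-binding protein, thus had the fewest of the 7 and Eif5a2 the most.

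In WT cells 29 of 63 members (46.0%, 34.3 to 58.2) had a listed H3K4me3 promoter, against 32.5% of all autosomal genes. In Cxxc1-deficient cells 9 of 63 (14.3%, 7.70 to 25) had one, against 6.12%. Of the 29 promoters listed in WT, 5 were also listed in Cxxc1-deficient cells (17.2%, 7.60 to 34.5), against 12.8% of all promoters listed in WT, so the share kept was near that of the genome. In bulk chromatin, a weaker mark in every cell and a mark in fewer cells cannot be told apart. Of the 34 not listed in WT, 4 were listed in Cxxc1-deficient cells (11.8%, 4.67 to 26.6), against 2.90%. No member had a Cxxc1 window within 1 kb of a TSS, against 2.03% of all genes, where a count of 0 in 63 has a Wilson upper limit of 5.75% (4.76% as 3 counts of 63). The plot of promoter RPM by role shows these 33 promoters beside the 30 listed in neither genotype.

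**Figure D1:**
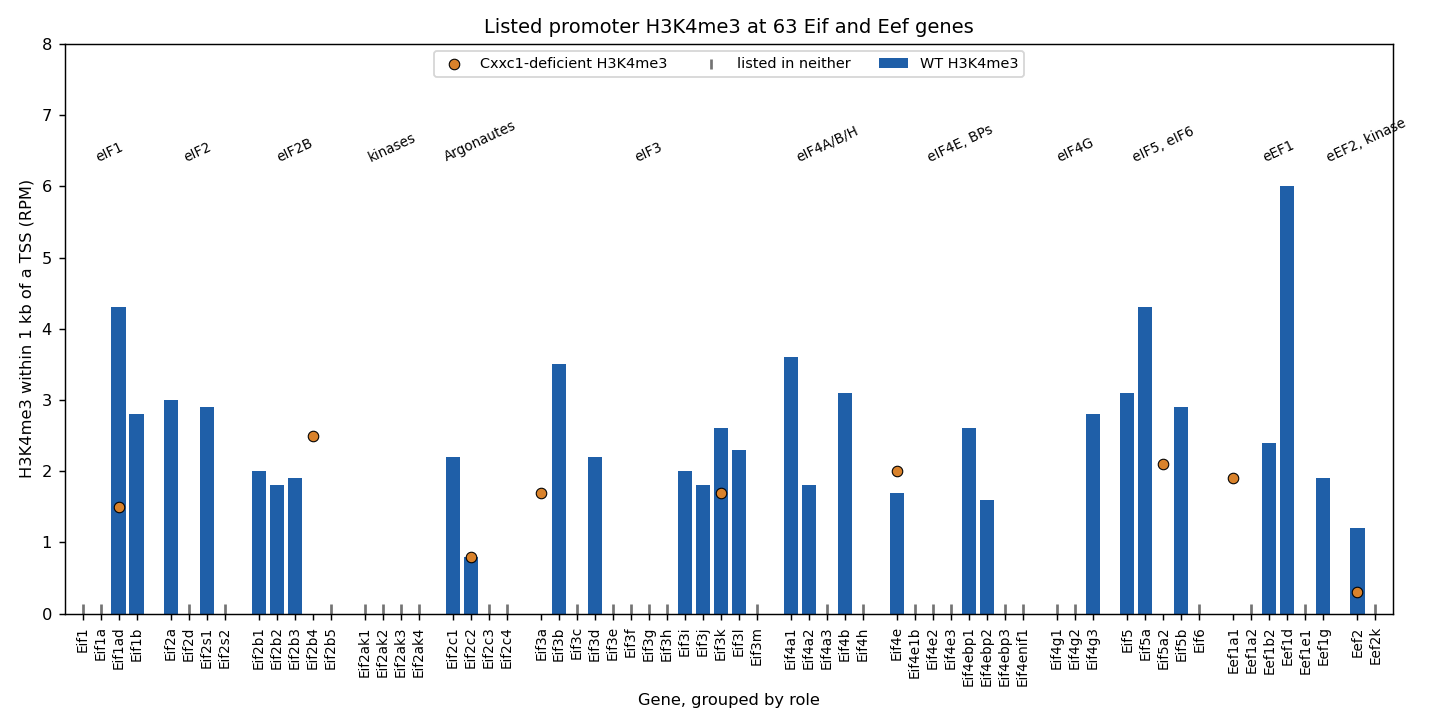
H3K4me3 within 1 kb of a TSS (RPM, vertical axis) at the 63 genes, grouped by role along the horizontal axis; bars are the WT library, circles the Cxxc1-deficient library, and grey ticks mark genes listed in neither. WT bars reach from 0.8 RPM (Eif2c2) to 6.0 RPM (Eef1d), and 4 circles stand where there is no bar.

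The promoters of these genes are CpG-rich. In the 300 bases around the first TSS (250 before and 50 after), the median CpG observed to expected ratio was 0.815 over the members and 0.554 over all genes, and 50 of 63 members (79.4%) met a GC content of at least 50% and a ratio of at least 0.6, against 43.5% of all genes. Among genes with such CpG-rich promoters, the members stood near the others: 25 of 50 (50%, 36.6 to 63.4) were listed in WT, against 53.7% of 9263, and 7 of 50 (14%, 6.95 to 26.2) in Cxxc1-deficient cells, against 9.68%. The same held for promoters listed in Cxxc1-deficient cells and not in WT, with 3 of 25 members (12%, 4.17 to 30) against 6.01%. Each of these values of CpG-rich promoters lay inside the members' interval. At this number of genes, these promoter shares therefore do not tell the members apart from other genes with CpG-rich promoters. Within the family, the 29 members listed in WT had a median ratio of 0.929 (0.802 to 0.998) and the 34 others 0.770 (0.701 to 0.888). The ranges overlapped, since Eif4e at 0.474 was listed and Eif4a3, Eif1, Eif4h and Eif4g2 were not despite 41, 28, 42 and 34 CpGs. The CpG class describes the first TSS only, whereas a listing can come from any TSS. Eif5a and Eef1a1 were classed as not CpG-rich, but their listed peaks were centred nearest to internal TSSs. At the first TSS Eif5a fell short on GC (43.3%, ratio 0.786) and Eef1a1 on the ratio (0.485, with 62.7% GC). The stretches before the internal TSSs had 72.4% and 72% GC, with 11 and 15 CpGs. Their ratios were not computed, so the GC value does not bear on the class of Eef1a1.

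**Figure D2:**
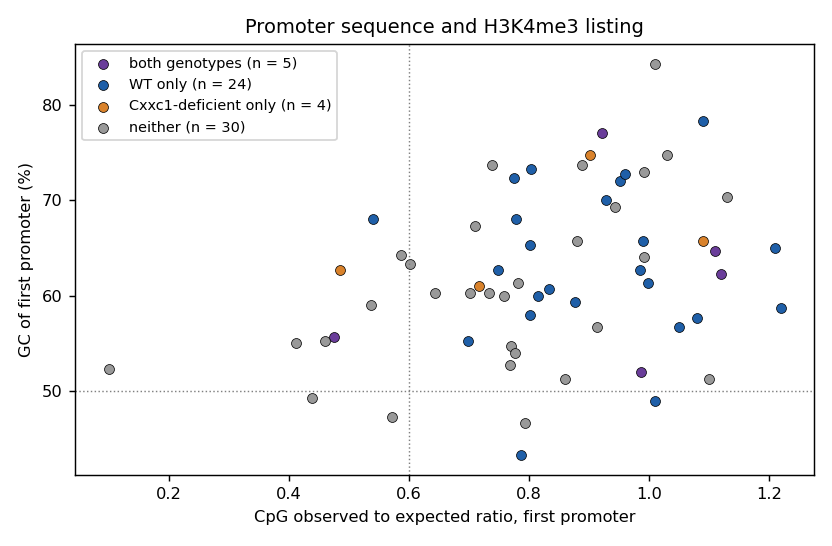
GC content (%, vertical axis) against CpG observed to expected ratio (horizontal axis) of the first promoter of each gene, coloured by the genotype in which H3K4me3 was listed; dotted lines mark 50% GC and a ratio of 0.6. Listed and unlisted genes share the upper right, and 13 genes fall outside the CpG-rich quadrant.

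Over the 29 members listed in WT, the median promoter H3K4me3 was 2.40 RPM (1.90 to 2.90, 24 tags), the same as over all 6917 listed promoters. Their widest promoter peak had a median width of 1400 bp (1200 to 2000), against 1600 bp. On average over these promoters, the signal was highest from 200 to 400 bp after the first TSS (0.359 RPM per 200 bp), and 55.8% of it lay downstream of the TSS, against 54.1% over all listed promoters. The Cxxc1-deficient library reached 0.0517 RPM in the same bin. The plot of mean signal by distance also has a shoulder beyond 1.6 kb downstream, where Eef2 held WT windows of up to 2.0 RPM.

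**Figure D3:**
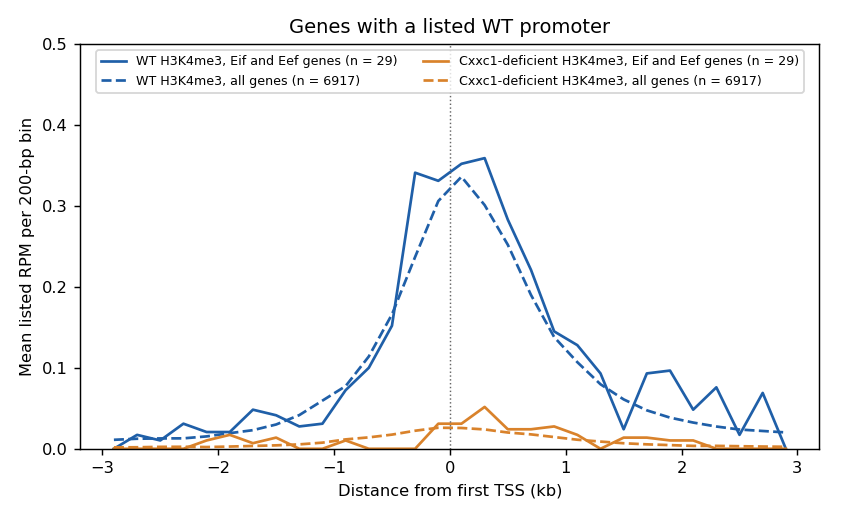
Mean listed RPM per 200-bp bin (vertical axis) by distance from the first TSS (kb, horizontal axis) for genes with a listed WT promoter; solid lines are the 29 Eif and Eef genes, dashed lines all 6917 genes, blue WT and orange Cxxc1-deficient. The WT lines of both gene sets peak just after the TSS, and the Cxxc1-deficient lines stay below 0.06 RPM.

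By RPM summed within 1 kb of every TSS, the strongest WT promoter was that of Eef1d. Eef1d encodes the delta subunit of the factor that recharges eEF1A with GTP. It held 6.0 RPM (60 tags, 45.8 to 77.2) in peaks of 4.8 and 1.7 RPM at separate TSSs, more than 99.0% of all listed promoters, and had no window in Cxxc1-deficient cells. The sum can rise with the number of TSSs, of which Eef1d had 13, and by single peak Eef2 (8.8 RPM) stood higher. Eif1ad, whose product contains an eIF1A-like domain, and Eif5a, the hypusinated factor that helps ribosomes through difficult peptide bonds, each held 4.3 RPM. The helicase gene Eif4a1 held 3.6 RPM, the eIF3 scaffold subunit gene Eif3b 3.5, Eif4b, whose product stimulates the helicase, 3.1, Eif5, which makes eIF2 hydrolyse its GTP, 3.1, and Eif2a 3.0. Of these 8, only Eif1ad was listed in Cxxc1-deficient cells. The lowest 4 were Eif4e with 1.7 RPM (17 tags), Eif4ebp2, an inhibitor of eIF4E, with 1.6 (16 tags), Eef2 with 1.2 (12 tags), most of whose peak lay beyond 1 kb, and Eif2c2 with 0.8 (8 tags). Of these 4, 3 were listed in both genotypes and Eif4ebp2 only in WT. The 5 members listed in both had a median of 1.70 RPM within 1 kb in WT cells (0.8 to 4.3) and the 24 listed only in WT 2.50 (1.6 to 6.0). By the whole of the widest promoter peak the order was reversed, with medians of 4.30 RPM and 2000 bp for the 5 and 2.60 RPM and 1400 bp for the 24. Over all genes the whole-peak medians were 2.90 RPM and 1700 bp for 886 listed in both and 2.60 RPM and 1600 bp for 6031 listed only in WT.

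By role, the genes named for the scanning factors eIF1 and eIF1A came to 2 of 4 listed in WT. Eif1ad was grouped here by its name and eIF1A-like domain, not as a scanning factor. Eif1ad and Eif1b (2.8 RPM) were listed, and Eif1 and Eif1a were not. Of the genes of eIF2 and the related factors eIF2A and eIF2D, Eif2s1, the alpha subunit whose phosphorylation slows initiation, held 2.9 RPM and Eif2a 3.0, and Eif2s2 and Eif2d were not listed. Neither had a window in Cxxc1-deficient cells. Of the 5 subunits of eIF2B, which exchanges GDP for GTP on eIF2, Eif2b1 (2.0 RPM), Eif2b3 (1.9) and Eif2b2 (1.8) were listed only in WT, Eif2b4 only in Cxxc1-deficient cells and Eif2b5 in neither. None of the 4 eIF2 kinase genes was listed at the promoter: Eif2ak1, which responds to heme, Eif2ak2, which responds to double-stranded RNA, Eif2ak3, which responds to stress of the endoplasmic reticulum, and Eif2ak4, which responds to uncharged tRNA.

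The eIF3 complex, which keeps the small subunit ready for mRNA, had 6 of 13 subunit genes listed in WT: Eif3b (3.5 RPM), Eif3k (2.6), Eif3l (2.3), Eif3d (2.2), Eif3i (2.0) and Eif3j (1.8). Eif3k was also listed in Cxxc1-deficient cells and Eif3a only there, and Eif3c, Eif3e, Eif3f, Eif3g, Eif3h and Eif3m were listed in neither. The subunits of the complex thus did not share a listing. Their WT share (46.2%, 23.2 to 70.9) was near the 46.0% of all members, so this mixture does not set the complex apart. Among the genes of the helicase and its partners, Eif4a1, Eif4b and Eif4a2 (1.8 RPM) were listed only in WT, and Eif4h and Eif4a3, the latter a core protein of the exon junction complex, in neither. Of the eIF4E group, Eif4ebp1 (2.6 RPM) and Eif4ebp2 were listed in WT and Eif4e in both, and Eif4e1b, Eif4e2, Eif4e3, Eif4ebp3 and Eif4enif1, which encodes a transporter of eIF4E, in neither. Of the scaffolds, Eif4g3 held 2.8 RPM in WT, and Eif4g1 and Eif4g2 were not listed.

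Of the late initiation factors, Eif5, Eif5a and Eif5b (2.9 RPM), the GTPase of subunit joining, were listed only in WT, Eif5a2 only in Cxxc1-deficient cells, and Eif6, which keeps the large subunit from joining early, in neither. Of the eEF1 genes, Eef1d, Eef1b2 (2.4 RPM) and Eef1g (1.9), all subunits of the exchange factor, were listed only in WT. Eef1a1 was listed only in Cxxc1-deficient cells, and Eef1a2 and Eef1e1 in neither. Eef2 was listed in both genotypes and the gene of its inhibitory kinase, Eef2k, in neither. Among the Argonautes, Eif2c1 (2.2 RPM) was listed in WT, Eif2c2 in both, and Eif2c3 and Eif2c4 in neither.

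The peaks of the 5 members listed in both genotypes fell into 2 kinds. At Eif1ad, Eif3k and Eif4e the WT and Cxxc1-deficient peaks overlapped. The WT peak of Eif1ad (chr19:5366201-5367600) held 4.3 RPM (42 tags, 30.3 to 56.8) and the Cxxc1-deficient peak 1.5 RPM (15 tags, 8.40 to 24.7) and lay with all of its 1000 bp inside the WT peak. At Eif3k, whose product is a peripheral eIF3 subunit, the WT peak (chr7:29766601-29768400) held 3.5 RPM (35 tags, 24.4 to 48.7) and the Cxxc1-deficient peak 1.7 RPM (16 tags, 9.15 to 26.0), with 400 bp in common. At Eif4e the WT peak (chr3:138189401-138191400) held 4.3 RPM (43 tags, 31.1 to 57.9) and the Cxxc1-deficient peak 2.0 RPM (20 tags, 12.2 to 30.9), with 800 bp in common. These sums cover regions called separately, of 1400 and 1000 bp at Eif1ad, 1800 and 600 bp at Eif3k and 2000 and 1200 bp at Eif4e, so they move with the length called and are not fold changes. In the windows listed in both genotypes, Eif1ad had 2.7 RPM (26 tags, 17 to 38.1) in WT and 1.5 RPM (15 tags) in Cxxc1-deficient cells over 4 windows. Eif3k had 0.7 RPM (7 tags, 2.81 to 14.4) and 0.6 RPM (6 tags, 2.20 to 13.1) over 2 windows, and Eif4e 1.7 RPM (17 tags, 9.90 to 27.2) and 1.4 RPM (14 tags, 7.65 to 23.5) over 4. Over these shared windows the tag intervals of the genotypes overlapped at all 3 genes. The windows had to pass the calling limit in both genotypes, and those listed in a single genotype were left out. The overlap therefore does not show that the mark was alike. Within 1 kb of the TSS, however, Eif4e had 1.7 RPM in WT and 2.0 in Cxxc1-deficient cells, because its WT peak began 246 bp after the TSS and ran to 2245 bp. As RPM is relative to each library, the higher value need not mean more of the mark.

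At Eef2 and Eif2c2 the promoter peaks of the genotypes lay apart. The WT peak of Eef2 (chr10:80639401-80642200) ran from 25 to 2824 bp after the TSS and held 8.8 RPM (84 tags, 67.0 to 104), the highest peak of any member promoter. The Cxxc1-deficient peak lay 2175 to 776 bp before the TSS and held 1.7 RPM (17 tags, 9.90 to 27.2), and a single window of 0.3 RPM (3 tags) brought it within 1 kb. It overlapped, by 600 bp, a separate upstream WT peak of 3.6 RPM (36 tags) that ended 1576 bp before the TSS. At Eif2c2, which encodes the slicing Argonaute, the WT peak of 3.0 RPM lay 2423 to 424 bp before the TSS and the Cxxc1-deficient peak of 2.2 RPM 777 to 2176 bp after it, 1200 bp apart. Counted by overlap of the promoter peaks, 3 of 29 members (10.3%, 3.58 to 26.4) were kept, against 12.2% of all promoters listed in WT.

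The 4 promoters listed only in Cxxc1-deficient cells overlapped no WT peak. Eif3a, the largest eIF3 subunit, had a peak of 3.8 RPM (38 tags, 26.9 to 52.2, chr19:60863801-60866800) that ran from 204 bp before to 2795 bp after the TSS, and the nearest WT peak was 82.6 kb away. Eif2b4 had 2.5 RPM (25 tags, 16.2 to 36.9, chr5:31494801-31496600) at a promoter shared with Snx17, with a WT peak 4.80 kb away. Eif5a2 had 2.1 RPM (21 tags, 13.0 to 32.1, chr3:28679601-28680600), with a WT peak 99.6 kb away. Eef1a1, which encodes the main carrier of aminoacyl-tRNA, had 1.9 RPM (19 tags, 11.4 to 29.7, chr9:78328401-78330200) at an internal TSS and none at its first, with a WT peak 37.4 kb away. The WT signal at each is below what was listed, by an amount the lists do not give. The maps of listed windows show all 9 promoters.

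**Figure D4:**
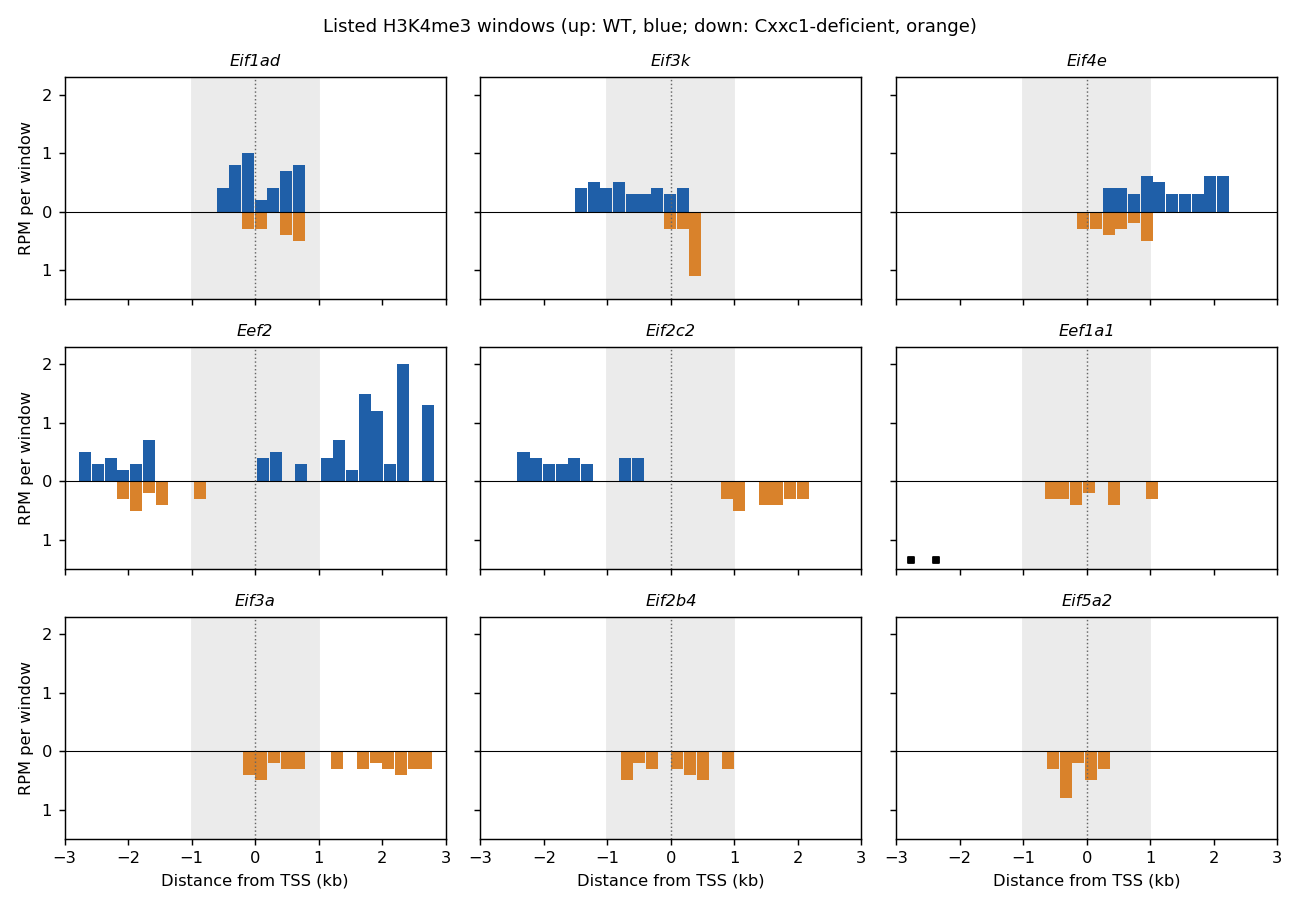
Listed windows (RPM per 200-bp window, vertical axis) by distance from the TSS (kb, horizontal axis; grey, within 1 kb) at the 9 promoters listed in Cxxc1-deficient cells; blue bars upward are WT, orange bars downward Cxxc1-deficient, and black squares mark Cxxc1 windows. WT and Cxxc1-deficient windows overlap at Eif1ad, Eif3k and Eif4e, lie on opposite sides of the TSS at Eif2c2, and WT windows are absent at Eef1a1, Eif3a, Eif2b4 and Eif5a2.

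Some paralogs differed in listing and are named here for that reason, whereas others were alike, such as Eif4ebp1 and Eif4ebp2, both listed only in WT, and Eif2c3 and Eif2c4, both in neither. Eif5a had a WT peak of 4.8 RPM and none in Cxxc1-deficient cells, whereas Eif5a2, which encodes a second form of the same protein, had a Cxxc1-deficient peak and none in WT. Their upstream stretches above differ in CpG number (11 in 170 bases and 25 in 200). Eif1b was listed in WT and Eif1 was not, Eif4a1 and Eif4a2 were and Eif4a3 was not, Eif4e was and Eif4e1b, Eif4e2 and Eif4e3 were not, and Eif4g3 was and Eif4g1 and Eif4g2 were not. Paralogs with near-identical copies elsewhere can lose uniquely mapped tags, and the part of this in the missing windows was not tested.

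The promoters that members share with another gene were listed more often. Of 10 members with a TSS of another protein-coding gene within 1 kb, 8 were listed in WT (80%, 49.0 to 94.3), against 57.8% of all 2658 genes with such a promoter, and of the other 53 members 21 were (39.6%, 27.6 to 53.1). These 8 were Eef1b2 with Ndufs1, Eif1ad with Banf1, Eif2a with Serp1, Eif2b1 with Gtf2h3, Eif2s1 with Atp6v1d, Eif3i with 2510006D16Rik, Eif3k with Map4k1 and Eif5b with Txndc9. The intervals overlapped, and that of the 10 included the value of all genes with shared promoters. Windows there cannot be assigned to either gene of the pair. Of the remaining 2, Eif2b4 was listed only in Cxxc1-deficient cells and Eif1a, which shares its promoter with Tmed7, in neither.

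Short motifs were counted on both strands of the same 300 bases. The ETS-type CCGGAAG was in 18 of 63 members (28.6%), against 19.9% of CpG-rich promoters and 11.1% of all. The Sp/Klf-type GGGCGG was in 77.8% of members and 76.4% of CpG-rich promoters, the E-box CACGTG in 15.9% and 11.6%, CCAAT in 31.7% and 36.9%, TATAAA in 4.76% and 4.73%, and the NRF1 motif in 1.59% and 2.53%. Members listed and not listed in WT held CCGGAAG in 31.0% and 26.5%. Of the stretches printed above, those of Eif1ad, Eif5a and Eif5a2 hold CCGGAAG on one of the strands, those of Eif3k, Eef2 and Eif5a2 hold CACGTG, that of Eif3k the NRF1 motif, and that of Eef2 TATAAA. These are matches of letters, with no measurement of a factor.

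In gene bodies, more than 1 kb from each TSS, WT H3K4me3 was listed at 11 of 63 members (17.5%, 10 to 28.6), against 21.4% of all genes, and Cxxc1-deficient H3K4me3 at 3 of 63 (4.76%, 1.63 to 13.1), against 5.91%. The values of all genes lay inside both intervals. Among genes with CpG-rich promoters, however, the WT share was 7 of 50 members (14%, 6.95 to 26.2), against 29.8% of 9263. That value lay above the members' interval, and the reason was not tested. In Cxxc1-deficient cells the shares were 3 of 50 (6%, 2.06 to 16.2) and 8.14%, which lay inside the interval. Of the 11 WT genes, 6 (Eif4e, Eif4g3, Eif4ebp1, Eif4b, Eef1d and Eif5a) held only windows that continue a promoter peak. With the body begun at 2 kb, the WT share was 11.1%, against 16.2% of all genes, and with 10 kb upstream included 30.2%, against 29.8%. Eef2 held 10.5 RPM in its body in WT cells, from the downstream part of its promoter peak and a peak of 5.4 RPM at the 3′ end, which also lies near the TSSs of Dapk3 and 4930442H23Rik. Eif2c2 held 10.6 RPM in WT in 3 intronic peaks of 3.1, 5.5 and 2.0 RPM and 1.4 RPM in Cxxc1-deficient cells, the latter the tail of its promoter peak. Eif3a held 2.1 RPM in Cxxc1-deficient cells, also from its promoter peak. Eif4e (2.6 RPM), Eif2c1 (1.7), Eif4g3 (1.3), Eif6 (1.3), Eif4ebp1 (0.8), Eif4b (0.7), Eef1d (0.5) and Eif5a (0.5) held less, in WT only.

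Eif4e3, a cap-binding paralog of eIF4E, held 25.2 RPM in 9 WT peaks over its annotated body, 6.8 RPM in 4 Cxxc1-deficient peaks and 5.2 RPM in 3 Cxxc1 peaks. Its annotated span of 409 kb, however, is set by a noncoding transcript that runs into Foxp1. Within the 41.6 kb of its protein-coding transcript (chr6:99575131-99616765) there were 3 WT peaks with 6.70 RPM in all, below the body values of Eif2c2 and Eef2, and none in the other lists. The Cxxc1-deficient and Cxxc1 values of Eif4e3 therefore lie outside its coding part.

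Cxxc1 windows were listed in the body of 11 of 63 members (17.5%, 10 to 28.6), against 8.80% of all genes. Among genes with CpG-rich promoters the shares were 8 of 50 members (16%, 8.34 to 28.5) and 12.2%. The 11 genes held 14 Cxxc1 peaks, 12 centred in introns and 2 in exons. Beside Eif4e3, they were Eif4g3 (3.5 RPM in 2 peaks), Eif4e2 (2.7), Eif2ak1 (2.5), Eif3b (2.4), Eif4g1 (1.9), Eef1a1 (1.8), Eif2ak3 (1.6), Eif2c4 (1.5), Eif2c1 (1.4) and Eif3h (1.3). The exonic peaks were those of Eif4e2 (chr1:89129601-89132600) and Eif4g1 (chr16:20688601-20689600). Of the 14 peaks, 0 overlapped an H3K4me3 peak of either genotype. The nearest to a WT peak was that of Eif2c1, 1.8 kb away, and the nearest to a Cxxc1-deficient peak that of Eef1a1, 1.60 kb away. The study reports that very few Cxxc1 sites in these cells lay at H3K4me3 at all, so this count alone does not set these genes apart. Of these 11 genes 3 had a listed WT promoter (10.3% of the 29 listed members) and 8 did not (23.5% of the 34 others). These shares rest on few genes, have no all-gene value beside them, and were not tested against each other. The 29 had a median gene length of 15.3 kb and the 34 others 19.5 kb. All of the 11 genes but Eef1a1 (10.7 kb) were longer than the members' median of 18.0 kb, against a median of 15.6 kb over all genes. None of the body shares was adjusted for gene length. The 8 include Eif4e3, whose Cxxc1 peaks lie outside its coding part. Of the 4 eIF2 kinases, with no H3K4me3 window at all, Eif2ak1 and Eif2ak3 held an intronic Cxxc1 peak. In the plot of body values, Cxxc1 and WT H3K4me3 stand together only at Eif2c1, Eif4e3 and Eif4g3.

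**Figure D5:**
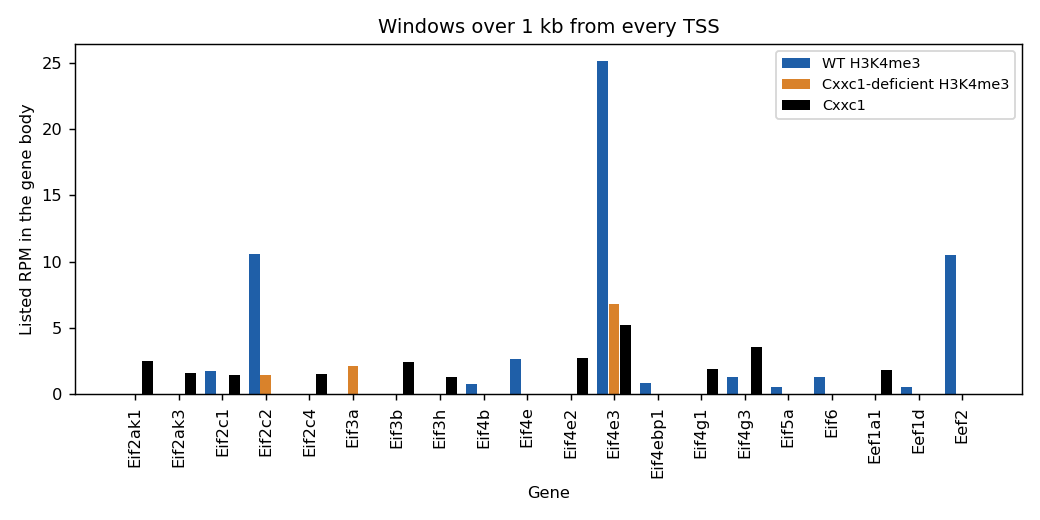
Listed RPM in the gene body (vertical axis) of the 20 genes with any listed body window (horizontal axis); blue bars are WT H3K4me3, orange bars Cxxc1-deficient H3K4me3 and black bars Cxxc1. Eif4e3, Eif2c2 and Eef2 stand above 10 RPM in WT, and the Eif4e3 bars cover an annotated span of 409 kb.

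Other genes of translation are given for comparison. Of 78 ribosomal protein genes 46 (59.0%) were listed in WT, 4 (5.13%) in Cxxc1-deficient cells and 3 in both, and their median WT promoter held 2.25 RPM. Of 5 genes of termination and recycling, Etf1, Hbs1l and Pelo were listed in WT with 3.3, 2.3 and 3.9 RPM, and Etf1, the release factor, also in Cxxc1-deficient cells with 1.7 RPM. Of 21 regulators and partners 12 were listed in WT and 3 of these in Cxxc1-deficient cells. These 3 were Pdcd4, an inhibitor of eIF4A, with 1.5 RPM in WT and 3.1 in Cxxc1-deficient cells, Ppp1r15a with 2.6 and 1.6, and Ppp1r15b with 2.4 and 2.4, both of which direct the phosphatase that restores eIF2. These pairs of RPM are relative to each library and do not compare amounts of the mark. Of 6 mitochondrial translation factor genes 3 were listed in WT and 0 in Cxxc1-deficient cells.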

How the data were processed

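Cxxc1 and H3K4me3 were profiled by ChIP-seq in DP thymocytes, 5 samples with 1 library per group. Per the submitters' processing notes, the authors used CASAVA 1.8.2 and SICER 1.1, which joins enriched windows into islands, on mm9. The authors deposited the 200-bp windows of called regions with a value in RPM at 1 decimal. Per the study's methods, input and the ChIP of Cxxc1-deficient cells served as controls in peak calling, and the use of a deficient library as control for H3K4me3 is not spelled out there. The aligner and the treatment of duplicates are not given in the sources used here. Each of these can change which windows are listed. The input and the Cxxc1-deficient Cxxc1 ChIP were not analysed here.

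Windows were joined into peaks across at most 2 missing windows, tags were recovered by dividing each window's RPM by the value of 1 tag, and RPM was summed over windows within 1 kb of any TSS of a protein-coding transcript (GENCODE annotation of mm9) or in the rest of the gene span. Records repeating a symbol (135, of which 1 was a fragment of Eef2k) were dropped. Medians carry order-statistic intervals. Every member is accounted for by role. Values were printed for members listed in Cxxc1-deficient cells or for Cxxc1, for the 8 highest and 4 lowest WT promoters and for paralog pairs that differ in listing, and other values were added after they were seen. Members and lists were chosen with earlier results of these data known. Alternatives changed the promoter window, TSSs, members, peak joining and gene span, and the CpG-rich, coding-span and neighbouring-TSS ones were chosen after seeing the data. Scripts were tested on simulated data and used Python 3.11.15, numpy 2.4.6, pandas 2.3.3, scipy 1.17.1 and matplotlib 3.10.9.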

Additional observations from a re-analysis of the deposited data

How the results depend on the processing

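No paired analysis was possible because no genotype has more than 1 library. Of 55 alternative values for the 9 shares and medians, 54 stayed within the interval of the reported value and 0 changed the order of the genotypes. The exception was the WT gene body share, which was 30.2% (all genes 29.8%) in place of 17.5% with 10 kb upstream included, a wider region by construction. With the body begun at 2 kb it was 11.1% (all genes 16.2%). The kept share was 17.2% as reported, 10.3% within 500 bp of a TSS or by overlap of peaks, and 10.7% with a minimum of 1 RPM. These values all lay inside its wide interval (7.60 to 34.5), so staying within an interval was a loose check. The order of the genotypes was also little of a check, as the WT list held 99316 windows and the Cxxc1-deficient list 18403. The Cxxc1-deficient body share was 4.76% as reported, 3.17% at 2 kb or within the protein-coding transcripts and 7.94% with 10 kb upstream. The Cxxc1 body share was 15.9% within the protein-coding transcripts. Cxxc1 came within 2 kb of a TSS at 1.59% of members (Eif2c1). Without members that share a promoter, 39.6% were listed in WT and 11.3% in Cxxc1-deficient cells. Counts are small and there were no replicates, so a listing that rests on 1 window, as at Eef2 in Cxxc1-deficient cells, is not firm.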
